A study of Mus musculus with 4 samples.

Results

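The classical cadherins, the catenins that bind their tails, and 3 neural adhesion molecules were examined in osteoblasts (OBs), the cells that form bone, with and without *Vegf*. They make up 10 of the 84 genes on an extracellular matrix and adhesion qPCR array. The members were chosen by name. The cadherins are *Cdh1* (well A06), *Cdh2* (A07), *Cdh3* (A08) and *Cdh4* (A09), the catenins are *Ctnna1* (B08), *Ctnna2* (B09) and *Ctnnb1* (B10), and the neural adhesion molecules are *Cntn1* (A10), *Ncam1* (F02) and *Ncam2* (F03). The deposited wells carry positions without gene names, so each name follows the alphabetical layout of the array, which was anchored by genes with values printed in the paper, and no value here checks it independently.

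The OBs came from 4-day-old male or female mice with Vegf fl/fl alleles, and both genotypes therefore carried the floxed gene. Adenovirus-GFP left *Vegf* expressed and gave the WT cultures. Adenovirus-Cre-GFP deleted it and gave the OBVEGFKO cultures. Transduction lasted 6 days and was followed by 24 h in medium with 1% serum, and 500 ng RNA was reverse transcribed. Cre was delivered by virus to cells in culture. The control virus carried no Cre, so exposure to Cre and loss of *Vegf* cannot be told apart. The number of mice behind each culture is not given in the sources used here.

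The array reads each gene as its threshold cycle (Ct), the number of PCR cycles needed to reach a fixed fluorescence, and a lower Ct stands for more template. There was 1 culture in each of the 4 groups (n = 1), so all differences compare single cultures, have no replicate error and were not tested. Over the 84 wells the median Ct went from 25.96 in WT to 21.92 in OBVEGFKO females and from 25.53 to 22.56 in males. The highest Ct was 35, which was taken as the detection limit, reached by 7 and 2 wells in females and by 5 and 5 wells in males. A total of 8 of the 10 members stayed below it in all 4 cultures, and the exceptions were *Cdh1* in male and *Cdh3* in female cells of the WT genotype. Neither *Vegf* nor the housekeeping wells were analysed here, and the cell type label was not checked, because none of the 10 genes defines OBs.

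Classical cadherins are transmembrane proteins that bind like cadherins on neighbouring cells. Their cytoplasmic tails bind β-catenin, which also carries Wnt signals to the nucleus, and β-catenin binds α-catenin, which links the junction to actin. N-cadherin, encoded by *Cdh2*, is a well known cadherin of OBs, whereas E-cadherin, encoded by *Cdh1*, is typical of epithelia. NCAM and contactin proteins belong to the immunoglobulin superfamily and are best known from neurons.

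Promoter sequences of RefSeq on build GRCm38.p6 are shown for *Ctnna2*, *Ctnnb1* and *Ncam2*, because *Ctnna2* and *Ncam2* carry differences between cultures described below and *Ctnnb1* has the lowest Ct of the 10 genes. Each is 300 bases, from 250 before to 50 after an annotated transcript start, 5′ to 3′ on the gene's strand, and capitals mark GC boxes (GGGCGG on either strand). The windows are chr6:77979618-77979917 on the minus strand for *Ctnna2*, chr9:120933150-120933449 on the plus strand for *Ctnnb1* and chr16:81200447-81200746 on the plus strand for *Ncam2*.
Ctnna2: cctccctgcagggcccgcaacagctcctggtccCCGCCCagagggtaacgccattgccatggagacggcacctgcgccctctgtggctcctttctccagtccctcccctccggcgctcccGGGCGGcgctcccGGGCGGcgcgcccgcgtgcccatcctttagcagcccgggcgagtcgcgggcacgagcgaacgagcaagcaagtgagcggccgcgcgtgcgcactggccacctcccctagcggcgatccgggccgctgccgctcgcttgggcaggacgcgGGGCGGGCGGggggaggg
Ctnnb1: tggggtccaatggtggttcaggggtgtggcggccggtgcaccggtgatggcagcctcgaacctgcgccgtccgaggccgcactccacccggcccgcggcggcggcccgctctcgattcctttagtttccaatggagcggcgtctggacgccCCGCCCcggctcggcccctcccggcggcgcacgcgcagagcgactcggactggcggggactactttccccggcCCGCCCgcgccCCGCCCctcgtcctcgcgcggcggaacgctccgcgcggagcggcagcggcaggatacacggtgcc
Ncam2: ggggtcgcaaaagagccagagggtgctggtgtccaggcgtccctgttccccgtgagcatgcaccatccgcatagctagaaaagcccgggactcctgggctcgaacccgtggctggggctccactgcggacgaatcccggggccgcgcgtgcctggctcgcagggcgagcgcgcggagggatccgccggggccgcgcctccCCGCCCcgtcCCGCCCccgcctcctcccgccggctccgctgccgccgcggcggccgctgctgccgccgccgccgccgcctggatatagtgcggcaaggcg
The 3 windows printed hold more CpG than the median window. *Ctnna2* holds 38 CpG and 5 GC boxes, of which the last 2 overlap each other, *Ctnnb1* holds 46 CpG and 3 GC boxes, and *Ncam2* holds 41 CpG and 2 GC boxes. Across 32544 windows of the same length the median was 7 CpG, and 35.9% held a GC box. GC content was 75.3% for *Ctnna2*, 75.3% for *Ctnnb1* and 75.7% for *Ncam2*, against a median of 53%. The E-box CAGGTG, searched on both strands, matched in the *Ctnna2* window alone among the 3, and in 20.3% of all windows. A match is a match of letters and shows no binding. All 10 symbols were found in the gene table, and *Cntn1* was the only other member with windows in the promoter table used. Its 3 windows differ from those printed, with 9, 5 and 4 CpG, a GC content of 55.3%, 34.7% and 45%, and no GC box. *Ctnnb1* has a second window at a later start, which overlaps the one printed and holds 51 CpG, 3 GC boxes and the letters TATAAA, found on either strand in 13.6% of all windows. *Cdh1*, *Cdh2*, *Cdh3*, *Cdh4*, *Ctnna1* and *Ncam1* are named without sequence.

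The catenins *Ctnnb1* and *Ctnna1* had the most template of the 10 genes, *Cdh2* lay near the middle of the panel, and the other cadherins came late. *Ctnnb1* ranked 24 to 27 and *Ctnna1* 27 to 32 among the 84 wells, counted from the lowest Ct, and *Cdh2* ranked 39 to 42. Within a culture *Ctnnb1* had the lowest Ct of the 10 genes, followed by *Ctnna1* and then *Cdh2*, and this order held in all 4 cultures. Ct levels of different genes come from different assays, and their gaps are read here as template only on the assumption of equal efficiency, 2-fold per cycle. With 1 culture per group there is no replicate spread to set beside a gap.

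*Ctnnb1*, which encodes β-catenin, had a Ct of 23.31 in WT and 19.55 in OBVEGFKO cells from females, and of 22.83 and 20.33 in those from males. Lists of 4 values below keep this order of cultures. *Ctnna1*, the α-catenin of most tissues, had a Ct of 23.37, 20.28, 23.00 and 20.43. *Cdh2* had a Ct of 25.60, 21.92, 24.83 and 22.41. All 3 genes were thus read well before the limit, with lower Ct in both OBVEGFKO cultures than in either WT culture. The gap of *Cdh2* to *Ctnnb1* was 2.29, 2.37, 2.0 and 2.08 cycles and varied by 0.37 cycles over the 4 cultures. *Ctnna1* lay 0.06, 0.73, 0.17 and 0.10 cycles above *Ctnnb1*. These gaps need no reference gene. Their variation was small beside the fall in Ct with deletion, but nearly all wells shared that fall. Gaps between pairs of other wells were not measured, so a steadiness particular to these genes was not tested.

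The other 3 cadherins came late. *Cdh1* went from a Ct of 33.59 in WT to 29.58 in OBVEGFKO females, and from the limit of 35 to 28.85 in males. *Cdh3*, which encodes P-cadherin, was at the limit in WT females and had a Ct of 31.45 in their OBVEGFKO counterpart, against 34.88 and 32.43 in males. *Cdh4*, which encodes R-cadherin, had a Ct of 33.21, 30.34, 32.79 and 30.22. Their ranks among the 84 wells ran from 71 to 80, counted from the lowest Ct.

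Relative to *Cdh2* in the same culture, *Cdh1* lay 7.99, 7.66, at least 10.17 and 6.44 cycles higher. At equal efficiency this is 254-fold, 202-fold, at least 1152-fold and 86.8-fold less *Cdh1* than *Cdh2*. On the log2 scale an efficiency of 1.9 in place of 2 gives −7.399, −7.093, −9.417 or below and −5.963 for *Cdh1* relative to *Cdh2*. The gap of *Cdh3* to *Cdh2* was at least 9.40, then 9.53, 10.05 and 10.02 cycles, and that of *Cdh4* was 7.61, 8.42, 7.96 and 7.81 cycles. *Cdh1* therefore moved against *Cdh2* by at least 3.73 cycles between the male cultures, whereas the gap of *Cdh4* varied by 0.81 cycles over the 4 cultures. The gap of *Cdh3* ran from 9.53 to 10.05 cycles in the 3 cultures where it was measured, and in female WT cells it has no upper bound.

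*Ctnna2*, the α-catenin known from neurons, was far scarcer than *Ctnna1*. Its Ct was 33.72, 28.04, 31.45 and 28.50. The gap to *Ctnna1* was 10.35, 7.76, 8.45 and 8.07 cycles, which is 1305-fold, 217-fold, 349.7-fold and 269-fold at equal efficiency. An efficiency of 1.9 gives log2 values of −9.584, −7.186, −7.825 and −7.473 for *Ctnna2* relative to *Ctnna1*. The female WT culture stood apart from the other 3, with the widest gap.

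The neural adhesion molecules were intermediate. *Cntn1*, which encodes a contactin, had a Ct of 27.11, 24.21, 27.33 and 24.61. *Ncam1*, the gene of the neural cell adhesion molecule NCAM, had a Ct of 28.30, 25.42, 27.84 and 25.31. *Ncam2*, its paralogue known from olfactory neurons, had a Ct of 28.07, 24.64, 26.75 and 23.82. All 3 lay between *Cdh2* and the late genes in all 4 cultures, and *Ncam1* came 2.70, 3.50, 3.01 and 2.90 cycles after *Cdh2*. *Ncam2* came earlier than *Ncam1* by 0.23, 0.78, 1.09 and 1.49 cycles, so the lead was larger in male than in female cells of the same genotype. *Cntn1* came earlier than *Ncam1* by 1.19, 1.21, 0.51 and 0.70 cycles, a lead that was smaller in male cells.

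**Figure D1:**
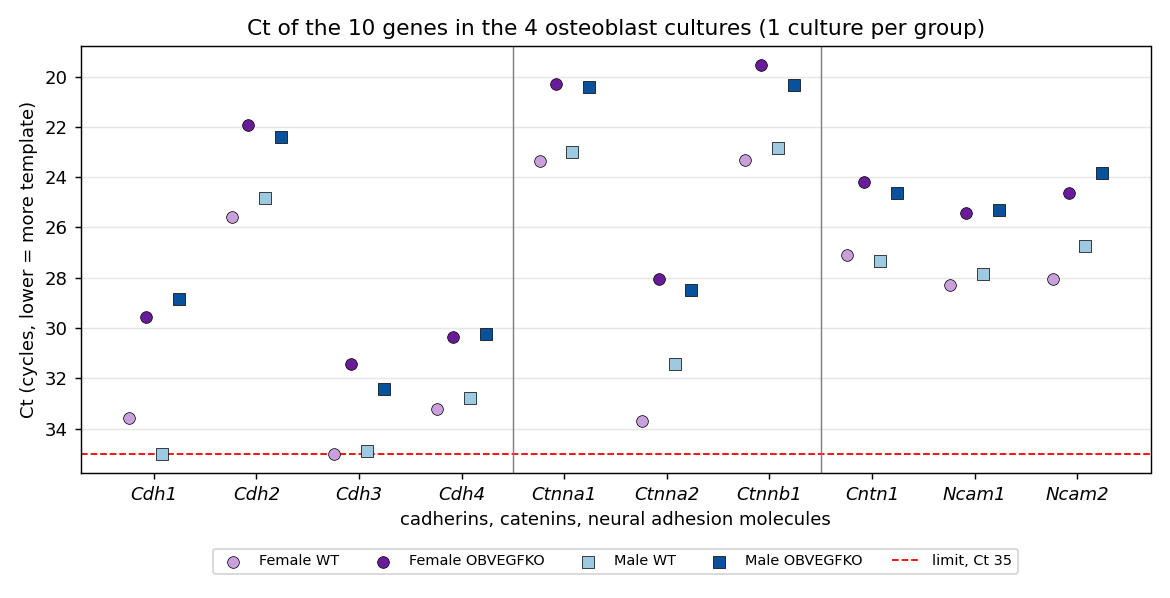
Ct of the 10 genes (vertical axis, cycles, with lower Ct standing for more template) in the 4 cultures, 1 point per culture. *Ctnnb1*, *Ctnna1* and *Cdh2* lie lowest in every culture, and *Cdh1* in male WT and *Cdh3* in female WT cells reach the limit of 35.

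**Figure D2:**
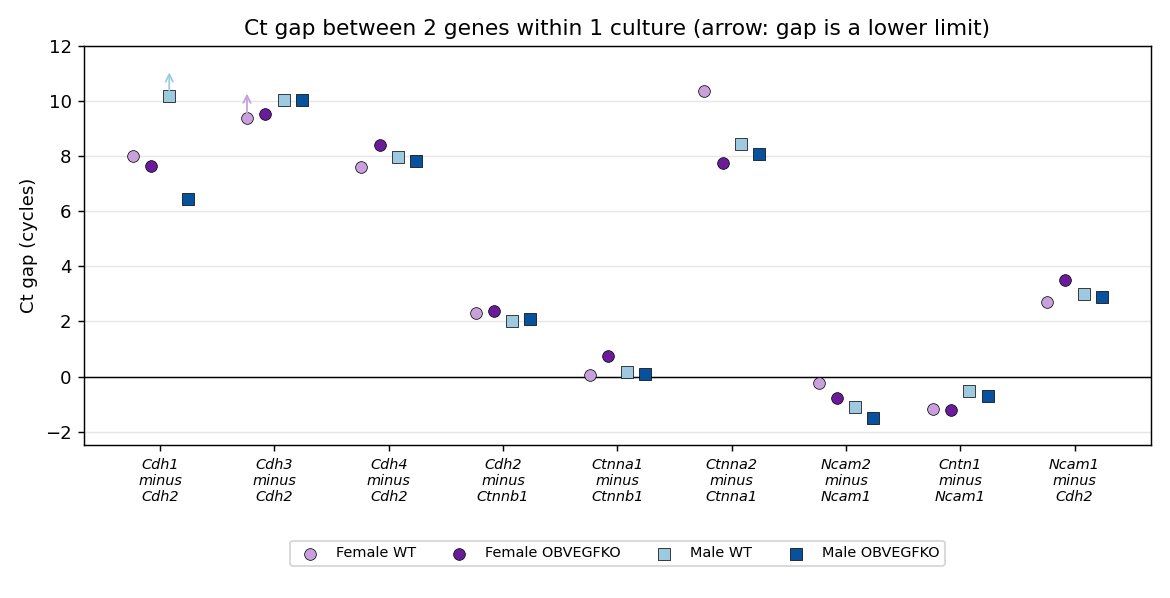
Ct gap between pairs of genes within each culture (vertical axis, cycles), 1 point per culture, where an arrow marks a gap known only as a lower limit. *Cdh2* minus *Ctnnb1* stays between 2.0 and 2.37 cycles, whereas *Cdh1* minus *Cdh2* runs from 6.44 to at least 10.17 and *Ctnna2* minus *Ctnna1* from 7.76 to 10.35.

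Cultures were compared on a log2 scale relative to a panel reference, the mean Ct of the 50 other wells whose Ct never passed 30. This reference stood at 23.62, 20.33, 23.30 and 20.39. It fell by 3.29 cycles from WT to OBVEGFKO in female and by 2.91 cycles in male cells. Without a reference all 10 members rose at least 2-fold with deletion in both sexes, and so were 100% of all comparable wells in female and 97.5% in male cells. A change shared by all genes and a change in the amount of template cannot be told apart here, and the values below describe departures from that shared shift. Normalisation to the housekeeping genes, as made by the authors, was not applied, and signs could differ under it. The median Ct of all 84 wells, tried as another reference, fell by 4.04 cycles with deletion in females and fell by 2.97 in males, and so gives lower values, mainly in females.

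The effect of *Vegf* deletion in female cells was led by *Ctnna2* among the members read below the limit in both female cultures. *Cdh3* has only a lower bound there. With deletion *Ctnna2* was higher by 2.39 on the panel-relative log2 scale, or 5.24-fold, and ranked 5 of 82 wells from the highest. Here and below, ranks of differences take limits at their bound. With the median Ct of all 84 wells as reference the difference was 1.64, or 3.12-fold. Its Ct fell by 5.68 cycles, from 33.72 to 28.04. In male cells its Ct fell by 2.95 cycles, and its panel-relative difference was 0.04, which ranked 30 of 81 wells and turned to −0.02 with the median of all wells as reference.

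*Cdh1* led in the male cells. Its Ct fell from the limit of 35 to 28.85, by at least 6.15 cycles, and on the panel-relative log2 scale it was higher by at least 3.24. This is at least 9.46-fold, and it ranked 1 of 81 wells with limits taken at their bound. In female cells its Ct fell by 4.01 cycles and its panel-relative difference was 0.72, which turned to −0.03 with the median Ct of all 84 wells as reference.

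Both genes were late, and late wells spread most. Among the other wells whose highest Ct passed 30, the median absolute panel-relative difference between OBVEGFKO and WT was 0.77 in female and 0.50 in male cells, and 5 of 18 and 4 of 18 wells passed 2-fold. Among other wells with a Ct of at most 26 throughout it was 0.18 and 0.25. The part of late amplification in the values of *Cdh1* and *Ctnna2* was not tested.

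The genes of the junction core stayed within 2-fold of the panel. Other wells with a Ct of at most 26 had a spread (robust SD) of 0.297 in female and 0.326 in male cells. *Ctnna1* departed by less than this in female cells, and the other values below by more. *Cdh2* was 0.39 higher in female and −0.49 in male OBVEGFKO cells, relative to WT cells of the same sex and to the panel. *Ctnnb1* had 0.47 and −0.41, and *Ctnna1* had −0.20 and −0.34. *Cdh2* and *Ctnnb1* thus took opposite signs in the sexes, with the female signs turning to −0.36 and −0.28 when the median Ct of all 84 wells served as reference. That median is set in part by *Cdh2* itself in the OBVEGFKO cultures. In cycles, *Cdh2* fell by 3.68 in female and 2.42 in male cells and *Ctnnb1* fell by 3.76 and 2.50, close to each other in each sex.

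*Cdh4* had a panel-relative difference of −0.42 in female and −0.34 in male cells, and *Cdh3* had at least 0.26 in female cells, where WT was at the limit, and −0.46 in male cells. *Ncam1* had −0.41 and −0.38, and *Cntn1* had −0.39 and −0.19. *Ncam2* had 0.14 and 0.02, which the median of all wells turned to −0.61 and −0.04, and the lower bound of *Cdh3* in females moved to −0.49, which leaves its sign undetermined. Relative to the panel these values lay under 2-fold in size, apart from that of *Cdh3* in female cells, which has no upper bound. With the median of all wells as reference 3 of the genes, like 28% of all wells, passed 2-fold lower in female cells, *Cdh4* at −1.17, *Ncam1* at −1.16 and *Cntn1* at −1.14.

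Counted over the list, 1 of 10 members rose at least 2-fold with deletion in female cells (*Ctnna2*), beside 8.54% of all 82 wells, and none was 2-fold lower, beside 2.44%, against 3 of 10 lower with the median Ct of all 84 wells as reference, beside 28% of the 82 wells. In male cells 1 of 10 was higher (*Cdh1*), beside 7.41% of 81 wells, and none lower, beside 3.7%. With either reference these shares are near those of all wells. The members' median was 0.20 in female cells, where all wells had 0.04 with quartiles of −0.29 and 0.39. It turned to −0.55 with the median Ct of 84 wells, where all wells had −0.715, and to −0.15 with all wells below the limit, where all wells had −0.31. In male cells it was −0.34, where all wells had −0.07 with quartiles of −0.38 and 0.24.

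**Figure D3:**
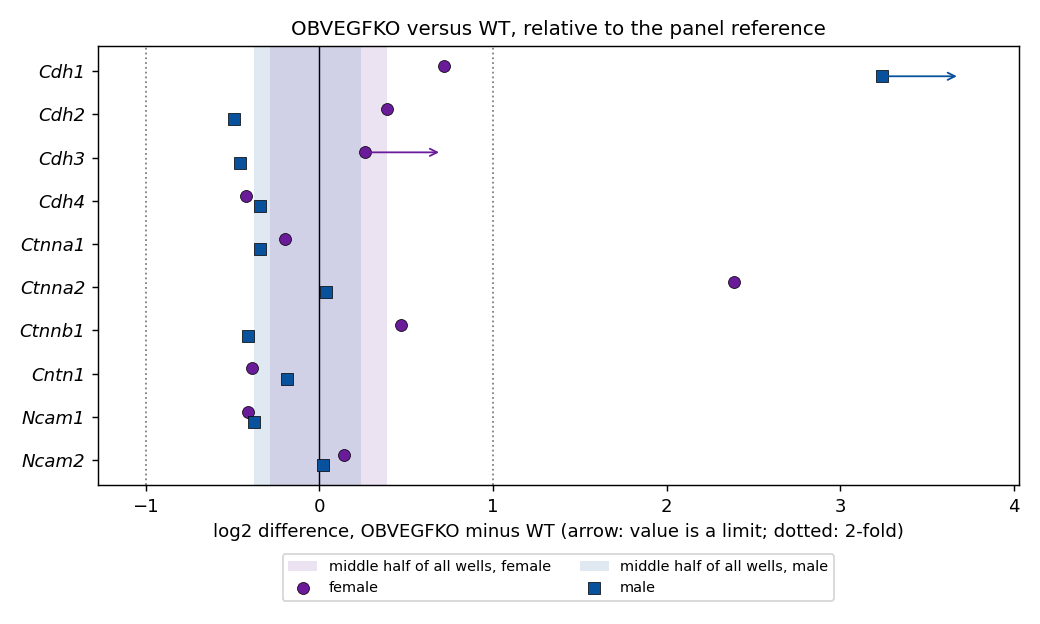
Panel-relative log2 difference between OBVEGFKO and WT (horizontal axis) for each of the 10 genes, with circles for female and squares for male cells, 1 culture per group. Arrows mark limits, shading the interquartile range of all wells and dotted lines 2-fold. *Ctnna2* in female cells (2.39) and *Cdh1* in male cells (at least 3.24) lie past 2-fold, and the other points lie within it on this reference, with *Cdh3* in female cells as a lower limit.

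The comparison of the sexes in WT cells was led by the same 2 late genes, with limits taken at their bound. Each gene's WT readings also enter its deletion effect, so the 2 comparisons are not independent. *Ctnna2* was 1.95 higher in male than in female WT cells on the panel-relative log2 scale, or 3.86-fold, and ranked 2 of 80 wells. *Cdh1* was lower in male WT cells, with a difference of −1.73 or below, at least 3.32-fold. Its well was at the limit in male WT cells and at 33.59 in female WT cells. Among the other late wells the median absolute difference was 0.66, and 5 of 18 passed 2-fold.

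In OBVEGFKO cells neither difference reached 2-fold relative to the panel. *Ctnna2* had −0.40 and *Cdh1* had 0.79 between male and female OBVEGFKO cells. *Cdh1* passed 2-fold in 2 of the 5 settings tried, which include no reference. It was at 1.37 with the median Ct of all 84 wells and at 1.01 with all wells below the limit. Both signs were thus opposite to those in WT cells, although the sign of *Ctnna2* turned to 0.18 with the median Ct of all 84 wells as reference.

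*Ncam2* was higher in male cells of both genotypes. Its Ct was lower in the male culture, at 26.75 against 28.07 in WT and 23.82 against 24.64 in OBVEGFKO cells. The panel-relative difference was 1.00 in WT cells, just under 2-fold and ranked 4 of 80 wells, and 0.88 in OBVEGFKO cells, 1.84-fold and ranked 6 of 82. For scale, 11 other wells had a highest Ct above 26 and up to 30. Their median absolute difference was 0.19 in WT and 0.56 in OBVEGFKO cells, and 2 and 4 of them passed 2-fold. The difference of *Ncam2* stayed positive in all 5 settings tried, which include no reference. It lay between 0.88 and 1.32 in WT and between 0.82 and 1.46 in OBVEGFKO cells. *Ncam1* had 0.14 and 0.17, and *Cntn1* had −0.54 and −0.34, the latter turning to 0.24 with the median of all wells. The 3 neural adhesion molecules thus had unlike sex differences.

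Among the junction genes, *Cdh2* had a male minus female difference of 0.45 in WT and −0.43 in OBVEGFKO cells. *Ctnnb1* had 0.16 and −0.72, and *Ctnna1* had 0.05 and −0.09. The signs of *Cdh2* and *Ctnna1* in OBVEGFKO cells depended on the reference, reaching 0.15 and 0.49 with the median Ct of all wells, with which the WT value of *Ctnna1* was −0.06. *Cdh4* had 0.10 and 0.18, and the former became −0.01 with that reference. *Cdh3* had −0.92 in OBVEGFKO cells, and in WT cells its difference was −0.20 or above, because female WT was at the limit, and its direction was not determined.

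By count, 1 of 10 members was at least 2-fold higher in male than in female WT cells, beside 3.75% of 80 wells, and 1 was lower, beside 7.5%. In OBVEGFKO cells none of 10 was higher or lower, beside 6.1% and 11% of 82 wells, whereas 2 were higher (*Cdh1* and *Ncam2*) with the median Ct of all 84 wells, beside 22% of all wells, or with all wells below the limit as reference, beside 12.2%. The members' median was 0.12 in WT cells, where all wells had 0.11, and −0.21 in OBVEGFKO cells, where all wells had 0.04. The latter turned to 0.365 with the median Ct of 84 wells, where all wells had 0.62, and to 0.004 with all wells below the limit, where all wells had 0.259.

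**Figure D4:**
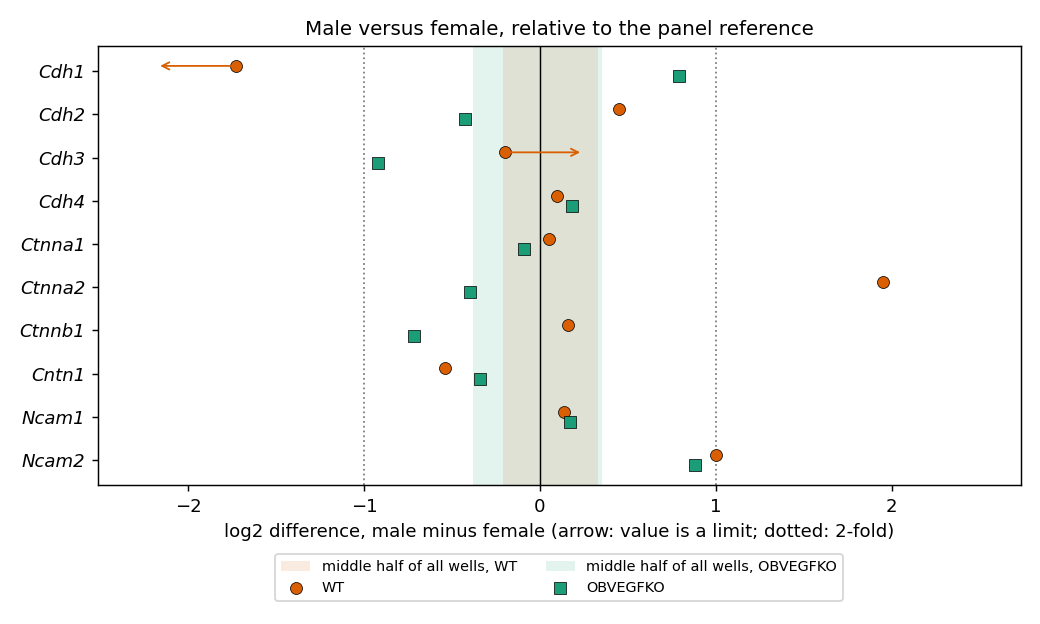
Panel-relative log2 difference between male and female cells (horizontal axis) for each of the 10 genes, with circles for WT and squares for OBVEGFKO, 1 culture per group. Arrows mark limits, shading the interquartile range of all wells and dotted lines 2-fold. *Ncam2* lies near 2-fold in both genotypes (1.00 and 0.88), and *Cdh1* and *Ctnna2* change sign between them, which for *Ctnna2* is lost with the median Ct of all 84 wells as reference.

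The effect of *Vegf* deletion was then set side by side in the 2 sexes as the male minus the female panel-relative difference. This value rests on the same Ct readings as the comparisons above and adds no further observation. It was −2.35 for *Ctnna2*, the 4th lowest of the 76 wells below the limit in all cultures, and at least 2.52 for *Cdh1*. Over the 5 settings, which include no reference, the first ran from −2.73 to −1.66 and the second from 2.14 to 3.21, each as a lower limit for *Cdh1*. *Cdh2* and *Ctnnb1* each had −0.88, ranked 10 and 11 from the lowest of the 76 wells, and ran from −1.26 to −0.19 over these settings. *Cdh3* had −0.72 or below.

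The remaining members had small values, with 0.20 for *Cntn1*, 0.08 for *Cdh4*, 0.03 for *Ncam1*, −0.12 for *Ncam2* and −0.14 for *Ctnna1*. The signs of *Ncam2* and *Ctnna1* depended on the reference, and those of *Cntn1*, *Cdh4* and *Ncam1* turned only when no reference was used. Over the 76 wells the median was −0.06, with quartiles of −0.31 and 0.25, and over the 8 members among them it was −0.13. Whether any of these effects differed between the sexes was not tested, since each rests on 4 single cultures.

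Likeness of pattern was measured as the root mean square difference of Ct over the 4 cultures, each gene centred on its own mean. The nearest pair was *Cdh4* and *Ncam1*, at 0.016 cycles, and *Cdh2* and *Ctnnb1* were each other's nearest gene at 0.15 cycles. *Ctnna1* was nearest to *Cdh4* at 0.112 and *Cntn1* to *Ctnna1* at 0.227 cycles. *Cdh3* was nearest to *Ctnnb1* at 0.159 cycles, with its limit taken as a value. The genes with a pattern of their own were *Ncam2*, at 0.46 cycles from its nearest member, *Ctnna2* at 0.80 and *Cdh1* at 1.275 cycles with its limit taken as a value, and *Cdh1* was the farthest member from each of the other 9. All points share the same 4 libraries of cDNA, and with 4 cultures the measure is a description.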

How the data were processed

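Ct values of 84 wells were read from 4 cultures. The members and gene lists were chosen with earlier results of these data known. The authors ran an RT-qPCR array on reverse-transcribed RNA, and deposited raw Ct values to 2 decimals without normalisation. They also deposited linear ratios (fold changes) for 4 comparisons, made by the ΔΔCt method against the housekeeping genes of the array; these are the authors' own comparisons and were not used. The depth of a well is not given beyond its Ct, and a Ct of 35 was treated as a limit. Groups were taken from the sample titles.

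The panel reference was the mean Ct of 50 wells whose Ct never passed 30, with the members left out. A log2 difference is the reference minus the Ct in one culture minus the same in the other, at an efficiency of 2. Wells at 35 in both cultures were left out, and a difference with 1 culture at 35 was given as a bound. All 10 members were named, and for each the nearest other member was found by likeness of pattern. With 1 culture per group no test was made. The alternatives were no reference, the median Ct of 84 wells, reference wells never past 26, all wells below the limit, an efficiency of 1.9, and thresholds of 1.5-fold and 4-fold. Calculations, checked on simulated arrays, used Python 3.11.15, numpy 2.4.6 and pandas 2.3.3, with matplotlib 3.10.9 for figures. Promoter windows on chromosome 18 were left out.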

Additional observations from a re-analysis of the deposited data

Results flagged for a closer look

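Relative to the panel, opposite signs were seen for the effect of *Vegf* deletion in male and female cells for 3 of the 10 genes. The share of all wells with opposite signs was not counted. Without a reference the Ct of all 3 genes fell with deletion in both sexes. The male minus female effect on the panel-relative log2 scale was −0.879 for *Cdh2*, −0.879 for *Ctnnb1* and −0.719 or below for *Cdh3*, each above 0 in female and below 0 in male cells. With the median Ct of all 84 wells as reference, the female values of *Cdh2* and *Ctnnb1* turned negative, and the sign of *Cdh3* was no longer determined, since its lower bound fell below 0.

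The male minus female difference also took opposite signs in WT and OBVEGFKO cells for 5 of the 10 genes. The share of all wells that did so was not counted, so this number is not read as a trait of the genes. *Ctnna1* is among them on values near 0, 0.05 and −0.09. The OBVEGFKO minus WT value was 2.521 or above for *Cdh1*, −0.879 for *Cdh2*, −0.139 for *Ctnna1*, −2.349 for *Ctnna2* and −0.879 for *Ctnnb1*. With that reference *Cdh2* and *Ctnna2* had positive values in both genotypes, and *Ctnna1* was negative in WT and positive in OBVEGFKO cells. For *Cdh2* that reference is not independent, since *Cdh2* helps to set the median in both OBVEGFKO cultures. None of these differences was tested, because each sex and genotype was 1 culture.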

How the results depend on the processing

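Each group was 1 culture without replicate numbers, so none could be left out, and a fit with sex as a block over the 4 cultures was not run. A log2 value counted as moved when it changed by the robust SD of the reference wells or more (0.282 to 0.378), and counts were allowed a factor of 1.5. Of 80 medians and counts, 17 moved. Within this tolerance 2 medians still turned sign with all wells below the limit, from 0.20 to −0.147 for female deletion and from −0.214 to 0.004 between OBVEGFKO sexes. Without a reference, the members' median became 0.44 between the sexes in WT cells, 3.49 for female and 2.57 for male deletion, with 10 members 2-fold higher for each deletion and 2 higher between WT sexes (10% of all wells). With the median Ct of 84 wells, the median became 0.365 between OBVEGFKO sexes, with 2 members higher, and −0.55 for female deletion, with 3 lower. With all wells below the limit, 2 were higher between OBVEGFKO sexes. At 1.5-fold, 2 were higher between WT sexes (13.8% of all wells), 2 higher and 2 lower between OBVEGFKO sexes (14.6% and 19.5%), and 2 higher for female deletion (19.5%). At 4-fold, 0 were higher and 0 lower between WT sexes (1.25% and 2.5%). Of 286 values for single genes, 96 moved and 38 turned sign, 10 of them within the tolerance. Of the 96, 40 moved without a reference and 30 with the median Ct of 84 wells. A further 16 moved at an efficiency of 1.9, and 10 with all wells below the limit. A change of reference shifts every gene of a comparison by the same amount. A Ct of 35 limits *Cdh1* and *Cdh3*.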
